A study of Mus musculus with 8 samples.

Results

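The blood stem and progenitor transcription factors followed here are 10 genes: Lmo2, Lyl1, Tal1, Runx1, Gata2, Meis1, Mecom, Myb, Gfi1 and Gfi1b. They were taken by the gene name printed beside each array probe, without regard to signal, which gave 13 probes of the 55681 on the array and 10 of its 34797 gene names. Runx1 has 2 probes, Mecom has 3 and the other 8 genes have 1 each. RNA was measured on 8 one-colour Agilent mouse arrays, 2 for each of 4 groups. Passage-8 cells were grown to passage 8 from c-kit+/CD45+ cells. CD45neg cells, as they are called here, were primary c-kit+/CD45- cells sorted from cultured pieces of the left atrial appendage, the small pouch on the upper heart chamber, after a strong digestion with trypsin at 0.25%. CD45pos cells were primary c-kit+/CD45+ cells sorted from such cultures after a weak digestion with trypsin at 0.05%, so the sort gate and the digestion changed together. Left ventricle was a biopsy of the chamber wall of 12-week-old mice and serves as the control tissue. The cultures came from mice 8 to 12 weeks old. All mice were C57BL/6, an inbred strain with no transgene named in the labels. RNA of the ventricle was extracted with a different reagent from that of the cells, which cannot be told apart from the difference between tissue and cells.

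These factors form the regulatory core of blood stem cells. Lmo2 is an adaptor without DNA binding of its own that joins a GATA factor to a heterodimer of Tal1 or Lyl1 with an E protein, held together by Ldb1. Runx1, Gata2, Fli1 and Erg bind many of the same enhancers as this complex in mouse blood progenitors. Meis1 and Mecom maintain the stem cell pool, Myb drives progenitor expansion, and Gfi1 and Gfi1b are repressors of the granulocyte and of the red cell and platelet lines. Several of them also act outside blood: Tal1, Lmo2, Lyl1, Gata2 and Erg are expressed in endothelium, Lmo2 and Lyl1 in macrophages, and Meis1 in heart muscle.

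Values are log2 of the processed spot signal minus the 75th percentile of the array, so 0 is the 75th percentile and 1 unit is 2-fold. They compare shares of the array's signal, and the number of arrays limits their precision. A probe was tested where the 2 arrays of one of the groups compared both had it well above background. It was called at a limma adjusted p under 0.05 and a difference of at least 1 log2 unit, which is 2-fold. The adjustment was Benjamini-Hochberg over all probes tested in the comparison. Whether the 2 arrays of a group stem from separate animals or cultures is not in the labels, and p-values measure only how far these samples spread, which may be a technical spread. Where 1 array of a group was left out, the array that remained was assumed to vary as the other groups do. Values without a CD45neg array therefore come from fits that no longer hold the spread of that group. Any fit with 1 array left out also holds fewer arrays, so a call can be lost while its difference stays unchanged. All arrays lay on 1 slide with 1 scan date. The 75th percentile signal was 974 to 976 in passage-8 cells, 426 to 521 in CD45neg cells, 839 to 897 in CD45pos cells and 569 to 600.2 in ventricle. The median absolute gap between the 2 arrays of a group was 0.093 log2 units in passage-8 cells, 0.450 in CD45neg cells, 0.117 in CD45pos cells and 0.301 in ventricle.

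Kit and Ptprc, which encode the sort markers c-kit and CD45, were read first. Ptprc measured -5.57 and -5.18 in passage-8 cells, -5.52 and -3.34 in CD45neg cells, 2.04 and 1.93 in CD45pos cells and -2.33 and -2.89 in ventricle. It was well above background on 1 of the 2 CD45neg arrays, replicate 2. Kit measured -5.68 and -5.55 in passage-8 cells, -6.34 and -1.55 in CD45neg cells, -3.57 and -3.33 in CD45pos cells and -1.48 and -2.48 in ventricle. It was low in passage-8 and CD45pos cells, and the CD45neg arrays were split, with replicate 1 not well above background and replicate 2 between the 2 ventricle values. Kit did not pass in any of the 6 comparisons (limma adjusted p from 0.0864 to 0.825).

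Between the 2 primary cell types, 5 of the 7 members tested were called, where 21.0% of all genes tested were. Lmo2, Lyl1 and Tal1 were lower in CD45neg cells, and Meis1 and Mecom were higher than in CD45pos cells, while Gata2 and Runx1 did not pass. Over all genes 10.9% were called higher and 10.2% lower. The members' median difference was -0.20 log2 units, against 0.17 over all genes tested. In passage-8 against CD45pos cells 5 of 8 members tested were called, against 22.7% of all genes. Lmo2, Lyl1 and Tal1 were lower, Meis1 and Gata2 were higher, and Runx1, Mecom and Myb did not pass. Over all genes 12.1% were higher and 10.6% lower. The median was 0.19 for the members and 0.16 for all genes. Both comparisons share the CD45pos arrays.

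Passage-8 cells differed from CD45neg cells in 2 of the 8 members tested, Lmo2 and Mecom, both lower, where 13.2% of all genes were called, 6.5% higher and 6.67% lower. The median was 0.32 for the members and -0.01 for all genes. With only these 2 groups in the limma fit, 0 of the 8 passed and 2 had an unadjusted p under 0.05.

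Against ventricle, 5 of 8 members tested were called in passage-8 cells, 3 of 7 in CD45neg cells and 4 of 7 in CD45pos cells. Of all genes, 38.9% were called in passage-8 cells, 39.2% in CD45neg cells and 37.8% in CD45pos cells. By direction, in passage-8 cells 20.2% were higher and 18.7% lower, with 20.1% higher and 19.1% lower in CD45neg cells and 18.1% higher and 19.7% lower in CD45pos cells. Runx1 was higher in each of the 3 cell groups. Lyl1 and Tal1 were lower in passage-8 and CD45neg cells. Lmo2 was lower in passage-8 cells and higher in CD45pos cells, Mecom was lower in passage-8 cells, and Gata2 and Meis1 were lower in CD45pos cells. The members' medians were -0.90 in passage-8, -1.43 in CD45neg and -1.30 in CD45pos cells, against 0.05, 0.06 and -0.02 over all genes. The 3 comparisons share the ventricle arrays. The ventricle is a mixed tissue, so fewer cells of a type and less RNA per cell cannot be told apart.

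**Figure D1:**
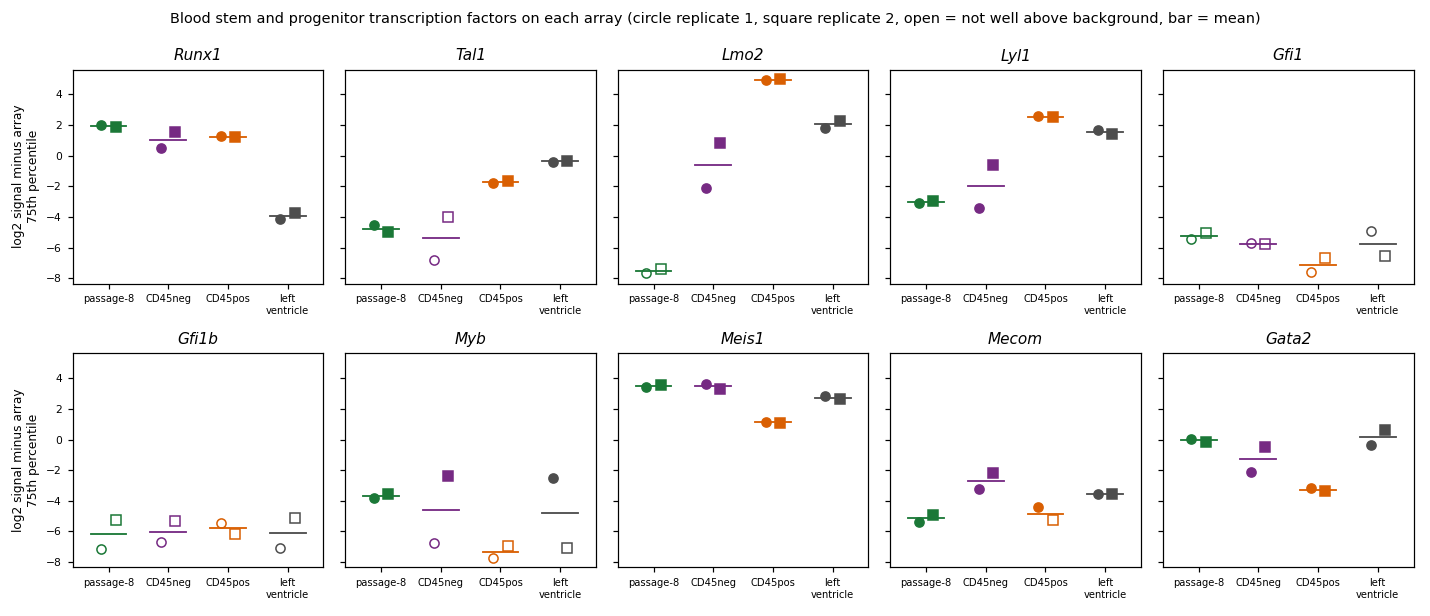
Level of each of the 10 genes on every array, as log2 signal minus the array's 75th percentile (y axis), in passage-8 cells, CD45neg cells, CD45pos cells and left ventricle (x axis). Circles are replicate 1, squares replicate 2, open symbols not well above background and bars group means. Lmo2 runs from -7.67 in a passage-8 array to 4.98 in a CD45pos array, Runx1 is low in ventricle only, and Gfi1 and Gfi1b are open on every array.

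**Figure D2:**
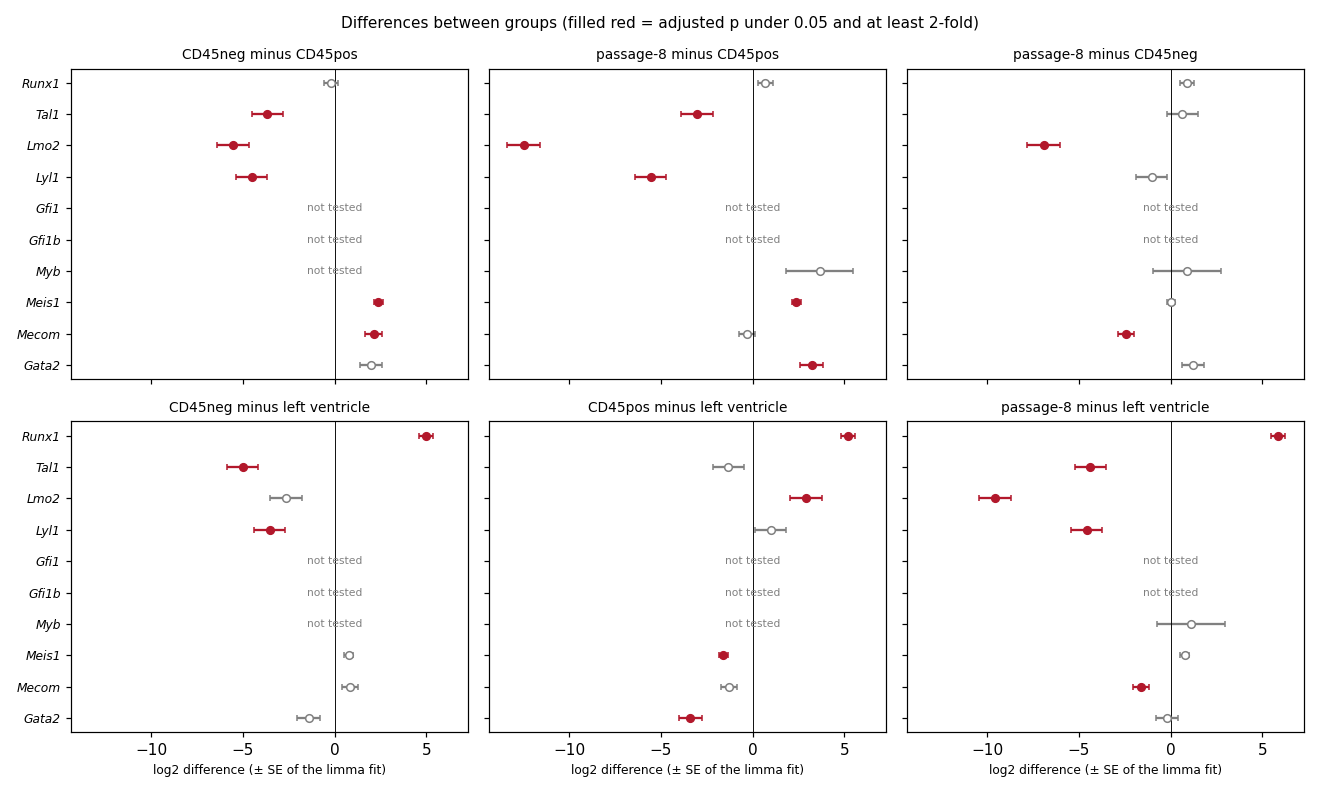
Log2 difference of each gene in the 6 comparisons (x axis, with the SE of the limma fit as bars), the group named first minus the group named second. Filled red points passed an adjusted p under 0.05 and at least 2-fold. The largest difference is that of Lmo2 in passage-8 against CD45pos cells.

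Lmo2, the bridging adaptor, had the widest range of the 10 genes. Its probe lies on chromosome 2 at chr2:103821857-103821916 (mm9, plus strand). It measured -7.67 and -7.41 in passage-8 cells, -2.07 and 0.86 in CD45neg cells, 4.93 and 4.98 in CD45pos cells and 1.82 and 2.27 in ventricle. The order was CD45pos, ventricle, CD45neg and passage-8, with no overlap between any pair of groups, and both passage-8 values were not well above background. Lmo2 was therefore at least 1620-fold lower in passage-8 than in CD45pos cells (limma adjusted p = 0.00087). It was at least 34.3-fold lower in passage-8 than in CD45neg cells (limma adjusted p = 0.00798), and at least 216-fold lower than in ventricle (limma adjusted p = 0.000671). CD45neg cells had 47.3-fold less than CD45pos cells, a log2 difference of -5.56 ± 0.88 (SE, limma adjusted p = 0.00982). The same cells were 2.66 log2 units below ventricle (-2.66 ± 0.88) and did not pass (limma adjusted p = 0.0522). CD45pos cells exceeded ventricle by 2.91 ± 0.88 log2 units (limma adjusted p = 0.0418).

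The CD45neg call for Lmo2 against CD45pos cells was lost without either CD45pos array. The difference was -5.59 without replicate 1 and -5.54 without replicate 2. Its size moved to -4.10 without CD45neg replicate 1 and to -7.03 without replicate 2, and that against passage-8 cells to -8.40 and -5.46. With only those 2 groups in the fit the passage-8 call against CD45neg cells was lost (adjusted p = 0.1). The call against ventricle in CD45pos cells was lost with no filter on dim probes (0.0665) and without any 1 of its 4 arrays, with adjusted p from 0.121 (without ventricle replicate 2) through 0.138 (without CD45pos replicate 1) and 0.146 (without CD45pos replicate 2) to 0.164 (without ventricle replicate 1). In CD45neg cells against ventricle Lmo2 passed under quantile normalization (adjusted p = 0.043), normexp background correction (0.006), the authors' value table (0.0219) and a variance trend with intensity (0.0177). That difference was -1.19 without CD45neg replicate 1 and -4.12 without replicate 2, each set on the 1 CD45neg array left.

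Lyl1, a basic helix-loop-helix factor that pairs with E proteins as Tal1 does, was high in CD45pos cells and ventricle. Its probe is at chr8:87228531-87228590 (mm9, plus strand). It measured -3.09 and -2.99 in passage-8 cells, -3.39 and -0.61 in CD45neg cells, 2.56 and 2.50 in CD45pos cells and 1.70 and 1.40 in ventricle. CD45pos cells and ventricle were high and close together, and the passage-8 values fell inside the CD45neg range. Lyl1 was 47.5-fold lower in passage-8 than in CD45pos cells (limma adjusted p = 0.00697) and it was 23.1-fold lower in CD45neg cells (limma adjusted p = 0.0152). Relative to ventricle, passage-8 cells had 24.0-fold less (limma adjusted p = 0.007), and it was 11.7-fold lower in CD45neg cells (limma adjusted p = 0.0167). The difference of 0.98 ± 0.84 log2 units between CD45pos cells and ventricle did not pass (limma adjusted p = 0.385), nor did that of -1.04 ± 0.84 between passage-8 and CD45neg cells (limma adjusted p = 0.441).

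The CD45neg call for Lyl1 against CD45pos cells was lost without CD45pos replicate 1 (adjusted p = 0.0918) or replicate 2 (0.092), and with only those 2 groups in the fit (0.0638). Against ventricle it was lost without ventricle replicate 1 (0.0836) or replicate 2 (0.069). Without CD45neg replicate 1 the difference from CD45pos cells was -3.14 and that from ventricle -2.15, and without replicate 2 they were -5.92 and -4.94. Passage-8 cells differed from the 1 CD45neg array left by -2.43 without CD45neg replicate 1 and by 0.35 without replicate 2.

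Tal1, the helix-loop-helix factor that specifies blood from mesoderm, is read by a probe at chr4:114744219-114744278 (mm9, plus strand). It measured -4.52 and -4.98 in passage-8 cells, -6.80 and -3.97 in CD45neg cells, -1.76 and -1.66 in CD45pos cells and -0.43 and -0.31 in ventricle. Ventricle was highest, CD45pos cells came next, and neither CD45neg array was well above background. Tal1 was at least 6.19-fold lower in CD45neg than in CD45pos cells (limma adjusted p = 0.0298) and at least 15.6-fold lower than in ventricle (limma adjusted p = 0.00525). In passage-8 cells it was 8.24-fold lower than in CD45pos cells (limma adjusted p = 0.0492) and 20.8-fold lower than in ventricle (limma adjusted p = 0.00897). CD45pos cells lay 1.34 log2 units below ventricle (-1.34 ± 0.85) and did not pass (limma adjusted p = 0.256).

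Several Tal1 calls were lost in some fits with 1 array left out. That of passage-8 against CD45pos cells was lost without either array of passage-8 cells, of CD45pos cells or of ventricle (adjusted p from 0.0903 to 0.192), and with no filter on dim probes (0.076). That of CD45neg against CD45pos cells was lost without either CD45pos array (adjusted p = 0.134 and 0.145) or either ventricle array (0.0607 each), with no filter on dim probes (0.0511) and with only those 2 groups in the fit (0.0958). With normexp background correction its size there was -0.95 (adjusted p = 0.0834). Against ventricle the passage-8 call was lost without ventricle replicate 2 (adjusted p = 0.0528). Without CD45neg replicate 1 the CD45neg differences were -2.26 from CD45pos cells and -3.60 from ventricle, and without replicate 2 they were -5.09 and -6.43. Passage-8 cells were 2.05 log2 units above CD45neg cells without CD45neg replicate 2, where the 1 array left was not well above background. CD45pos cells were called below ventricle with normexp (-1.16, adjusted p = 0.0314), the authors' value table (-1.14, adjusted p = 0.027) and only those 2 groups in the fit (adjusted p = 0.011), and also without either CD45neg array (adjusted p = 0.00863).

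The 2 CD45neg arrays differed in several members. Replicate 2 exceeded replicate 1 by 7.63-fold for Lmo2, 6.91-fold for Lyl1 and 7.13-fold for Tal1, which was dim on both. The gap was 20.3-fold for Myb, which was dim on replicate 1, 3.16-fold for Gata2, 2.07-fold for Runx1 and 2.01-fold for Mecom. Meis1 was lower on replicate 2, at 0.793 times replicate 1. Over the same arrays the summed signal of 12 macrophage markers was 4.18 and 36.5 times the 75th percentile, an 8.74-fold gap, and that of 6 mast cell markers 0.925 and 5.85. Of the mast cell markers Hdc, which makes histamine, measured -0.90 and 2.34 there, while Cpa3, Fcer1a, Mcpt4 and Ms4a2 were not well above background on either array. The summed macrophage signal was 7.91 and 7.94 in passage-8 cells, 900.2 and 890.3 in CD45pos cells and 38.4 and 33.5 in ventricle. Of the 12 macrophage markers, 9 were well above background on both CD45neg arrays, and Cd163 on neither. All 11 macrophage markers tested were called lower in passage-8 and in CD45neg than in CD45pos cells, where 10.6% and 10.2% of all genes were. Their part in the members' values was not tested.

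Relative to the CD45pos mean, the macrophage sum was 0.884% and 0.887% on the passage-8 arrays, where Lmo2, not well above background, was at 0.0159% and 0.0189% and Lyl1 at 2.03% and 2.19%. Csf1r was the brightest marker in that passage-8 sum, with a mean of 2.24 log2 units, and Cd68 came next at 0.06. Adgre1, C1qa and Cd163 were dim in passage-8 cells. In CD45neg cells Adgre1 and C1qa were detected on both arrays, and Csf1r was at 1.07 on replicate 1. The macrophage sum was 0.467% on CD45neg replicate 1 and 4.08% on replicate 2. Lmo2 was at 0.766% and 5.84% on those arrays, and Lyl1 at 1.65% and 11.4%. In ventricle the macrophage sum was at 4.29% and 3.75% of the CD45pos mean, while Lmo2 was at 11.4% and 15.6%, Lyl1 at 56.2% and 45.5% and Tal1 at 243% and 263%. The summed signal of 12 endothelial markers, all well above background in ventricle, was at 997% and 1064% there. The endothelial sum was 19.5 on both passage-8 arrays, 21.0 and 37.0 in CD45neg cells, 18.8 and 16.8 in CD45pos cells and 177 and 189 in ventricle. In passage-8 cells Egfl7, Kdr and Flt1 were bright, and Cdh5, Tie1, Emcn, Sox17, Sox18 and Robo4 were not well above background on either array. Of 11 endothelial markers tested in passage-8 against CD45pos cells, 7 were called lower and 1, Egfl7, higher, where 10.6% and 12.1% of all genes were. In CD45neg against CD45pos cells 0 of 11 were called, where 21.0% of all genes were. The part of the endothelial markers in the ventricle levels of these genes was not tested.

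**Figure D3:**
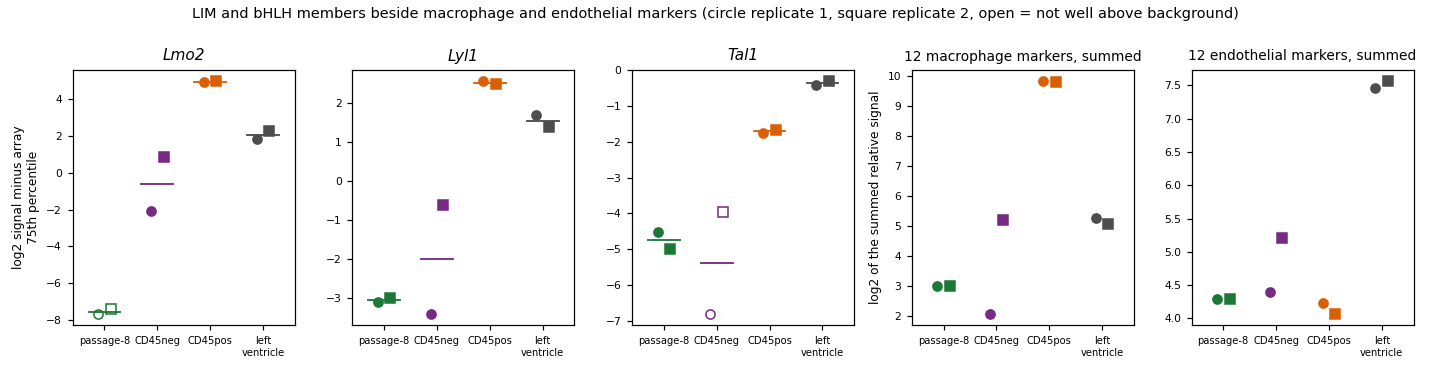
Lmo2, Lyl1 and Tal1 (log2 signal minus the array's 75th percentile) beside the log2 summed signal of 12 macrophage and 12 endothelial markers (y axes, each on its own range), in passage-8 cells, CD45neg cells, CD45pos cells and left ventricle. CD45neg replicate 2 (square) lies above replicate 1 (circle) in all 5 panels, the macrophage sum is highest in CD45pos cells and the endothelial sum in ventricle.

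Runx1, the DNA-binding partner of Cbfb that is needed when blood stem cells arise from endothelium, was the member that set all 3 cell groups apart from ventricle. The probe with the higher mean, at chr16:92605785-92605844 (mm9, minus strand), measured 1.99 and 1.90 in passage-8 cells, 0.52 and 1.58 in CD45neg cells, 1.31 and 1.19 in CD45pos cells and -4.10 and -3.77 in ventricle. The ventricle arrays lay far below the rest, and the CD45neg range enclosed both CD45pos values. Runx1 was 58.7-fold higher in passage-8 cells than in ventricle (limma adjusted p = 0.000274), 31.6-fold higher in CD45neg cells (limma adjusted p = 0.000402) and 36.3-fold higher in CD45pos cells (limma adjusted p = 0.000368). These 3 calls held without each of the 8 arrays in turn, with adjusted p of at most 0.00563. Among the cell groups the differences were 0.69 ± 0.38 for passage-8 against CD45pos, 0.89 ± 0.38 for passage-8 against CD45neg and -0.20 ± 0.38 for CD45neg against CD45pos cells, and none passed (limma adjusted p from 0.173 to 0.737). Without CD45neg replicate 2 the passage-8 excess over CD45neg cells was 1.42 and passed (adjusted p = 0.0248), and without replicate 1 the CD45neg difference from CD45pos cells was 0.33.

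The second Runx1 probe, at chr16:92604413-92604472, starts at base 4166 of its design transcript, and the one above at base 1452. It measured 1.74 and 1.78 in passage-8 cells, -0.40 and 0.19 in CD45neg cells, 1.04 and 1.05 in CD45pos cells and -3.58 and -2.84 in ventricle. Both probes put ventricle lowest by over 8-fold. In CD45neg against CD45pos cells the second probe gave -1.15 ± 0.34 and did not pass (limma adjusted p = 0.0599), beside -0.20 for the first. Their calls parted in passage-8 against CD45neg cells, where the second probe passed at 3.64-fold higher (limma adjusted p = 0.022). The call was lost without passage-8 replicate 1 (adjusted p = 0.1) or 2 (0.113) or either CD45pos array (0.0603 each). The first 30 of the 60 bases of each probe show that they read different stretches:
Runx1 probe at base 1452: caggagggcccttggaggccaccaggaaga
Runx1 probe at base 4166: tgtgcatcgtgtcactgtaaatgtaatggt

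Gata2, the zinc finger factor that sustains blood stem cells and mast cells and is also an endothelial factor, ran opposite to Lmo2 among the cell groups. Its probe is at chr6:88156362-88156421 (mm9, plus strand). It measured 0.05 and -0.16 in passage-8 cells, -2.12 and -0.46 in CD45neg cells, -3.14 and -3.38 in CD45pos cells and -0.37 and 0.65 in ventricle. CD45pos cells were lowest with no overlap, and passage-8 cells fell inside the ventricle range. Gata2 was 9.23-fold higher in passage-8 than in CD45pos cells (limma adjusted p = 0.0145) and it was 10.6-fold lower in CD45pos cells than in ventricle (limma adjusted p = 0.00657). CD45neg cells were 1.97 ± 0.61 above CD45pos cells (limma adjusted p = 0.0646) and 1.43 below ventricle (-1.43 ± 0.61, limma adjusted p = 0.103), and did not pass. Passage-8 cells were 1.24 ± 0.61 above CD45neg cells and did not pass (limma adjusted p = 0.222). The passage-8 call was lost without passage-8 replicate 1 (adjusted p = 0.0595) or CD45pos replicate 1 (0.0738) or 2 (0.091). The CD45neg excess over CD45pos cells passed at 2.80 without CD45neg replicate 1, and without replicate 2 Gata2 was called lower than in ventricle (-2.26) and higher in passage-8 than in CD45neg cells (2.07). It also passed against CD45pos cells under quantile normalization (adjusted p = 0.0447), normexp (0.0196), the authors' value table (0.0284) and a variance trend with intensity (0.0212).

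Meis1, a homeodomain partner of Pbx and Hox proteins that supports stem cell maintenance and in mouse heart restrains cardiomyocyte division, had the closest replicates of the called members. Its probe is at chr11:18780695-18780754 (mm9, minus strand). It measured 3.46 and 3.52 in passage-8 cells, 3.64 and 3.31 in CD45neg cells, 1.12 and 1.09 in CD45pos cells and 2.83 and 2.62 in ventricle. Passage-8 and CD45neg cells overlapped at the top, ventricle lay below them and CD45pos cells were lowest. Meis1 was 5.21-fold higher in passage-8 than in CD45pos cells (limma adjusted p = 0.00212), 5.16-fold higher in CD45neg than in CD45pos cells (limma adjusted p = 0.00366) and it was 3.06-fold lower in CD45pos cells than in ventricle (limma adjusted p = 0.00335). Each of these calls held without each array in turn, with adjusted p of at most 0.0473. Passage-8 cells were 1.70-fold and CD45neg cells 1.68-fold above ventricle, under the 2-fold minimum (limma adjusted p = 0.0445 and 0.0455). The difference of 0.01 ± 0.24 log2 units between passage-8 and CD45neg cells was smaller than its error (limma adjusted p = 0.976).

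Mecom, the zinc finger gene that also encodes the EVI1 form and is needed to maintain blood stem cells, was low in every group. Its brightest probe, at chr3:30135491-30135550 (mm9, minus strand), measured -5.36 and -4.94 in passage-8 cells, -3.22 and -2.22 in CD45neg cells, -4.41 and -5.27 in CD45pos cells and -3.54 and -3.53 in ventricle. CD45neg cells were highest with no overlap, and passage-8 and CD45pos cells overlapped. CD45pos replicate 2 was not well above background. Mecom was 5.39-fold lower in passage-8 than in CD45neg cells (limma adjusted p = 0.0224), 4.34-fold higher in CD45neg than in CD45pos cells (limma adjusted p = 0.0232), and it was 3.06-fold lower in passage-8 cells than in ventricle (limma adjusted p = 0.031). The differences of -0.31 ± 0.45 between passage-8 and CD45pos cells, 0.82 ± 0.45 between CD45neg cells and ventricle and -1.30 ± 0.45 between CD45pos cells and ventricle did not pass (limma adjusted p = 0.655, 0.189 and 0.0623).

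All 3 Mecom calls were lost in some fits with 1 array left out. That of passage-8 against CD45neg cells was lost without passage-8 replicate 1 (adjusted p = 0.105) or 2 (0.0771), with the mean of all probes (0.0706) and with only those 2 groups in the fit (0.12). That of CD45neg against CD45pos cells was lost without CD45neg replicate 2 (0.0519) or CD45pos replicate 1 (0.0671) or 2 (0.14), and with only those 2 groups in the fit (0.0842). That of passage-8 cells against ventricle was lost without passage-8 replicate 1 (0.13) or 2 (0.0658) or ventricle replicate 1 (0.11) or 2 (0.112) and with the mean of all probes (0.0734), and was under 2-fold with normexp (-0.97) and the authors' value table (-0.96). CD45pos cells were called below ventricle (-1.30) without either CD45neg array (adjusted p = 0.0352) and with only those 2 groups in the fit (0.0446).

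The second Mecom probe, at chr3:29876185-29876244, measured -6.28 and -5.43 in passage-8 cells, -3.46 and -3.64 in CD45neg cells, -5.14 and -5.64 in CD45pos cells and -4.43 and -4.61 in ventricle. It gave the same order at the top, with CD45neg cells highest, and both passage-8 values were not well above background. It passed at 3.57-fold higher in CD45neg than in CD45pos cells (limma adjusted p = 0.0181), at least 4.27-fold lower in passage-8 than in CD45neg cells (limma adjusted p = 0.0138) and at least 2.18-fold lower in passage-8 cells than in ventricle (limma adjusted p = 0.0277). The first call was lost without CD45pos replicate 1 (adjusted p = 0.074) or 2 (0.127), and the second without passage-8 replicate 1 (0.067). The call against ventricle was lost without passage-8 replicate 1 (0.148) or ventricle replicate 1 (0.111) or 2 (0.0831). The third probe, at chr3:30445665-30445724, was well above background on passage-8 replicate 2 alone and was not tested. The first 30 of the 60 bases of the 3 probes, which begin at bases 1015, 1829 and 564 of different design transcripts, are:
Mecom probe at base 1015: gttttgtccctggacacatccttgggaagg
Mecom probe at base 1829: cccgcttgaagctttgaaagaaaaatactt
Mecom probe at base 564: ataaaatgtgcaggtgtgacggacgacttt

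**Figure D4:**
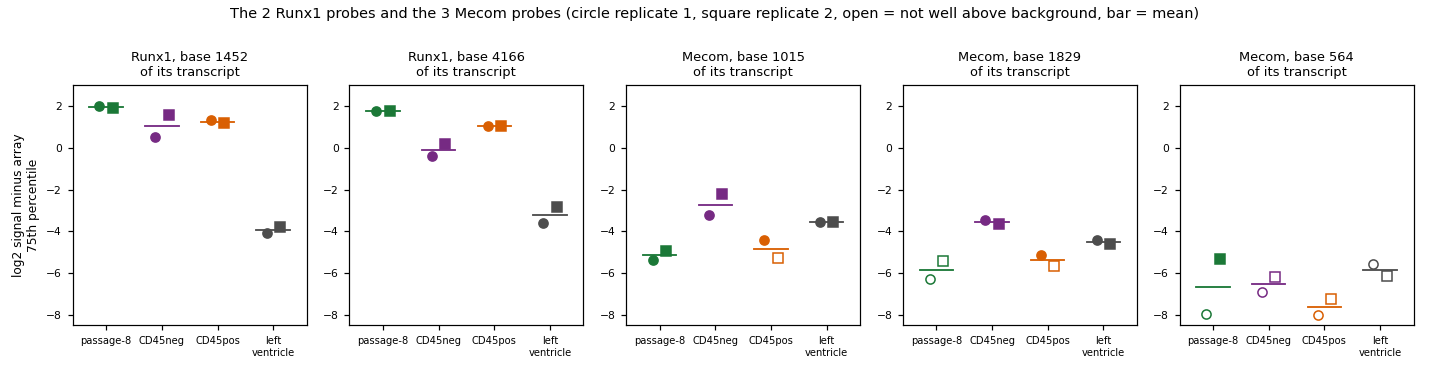
The 2 Runx1 probes and the 3 Mecom probes, each titled by the base of its design transcript where it starts, as log2 signal minus the array's 75th percentile (y axis) in passage-8 cells, CD45neg cells, CD45pos cells and left ventricle (x axis). Circles are replicate 1, squares replicate 2, open symbols not well above background and bars group means. Both Runx1 probes are lowest in ventricle, 2 Mecom probes are highest in CD45neg cells, and the third Mecom probe is open on 7 of 8 arrays.

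Myb, the factor that drives division of blood progenitors, was near background. Its probe at chr10:20844736-20844795 (mm9, minus strand) measured -3.81 and -3.55 in passage-8 cells, -6.74 and -2.39 in CD45neg cells, -7.71 and -6.95 in CD45pos cells and -2.49 and -7.06 in ventricle. Passage-8 cells were the only group well above background on both arrays, and the CD45neg and ventricle pairs were each split, with 1 dim array (CD45neg replicate 1 and ventricle replicate 2). It was therefore tested in the 3 comparisons of passage-8 cells, and did not pass against CD45neg cells, CD45pos cells or ventricle (limma adjusted p = 0.782, 0.205 and 0.663). The passage-8 mean was at least 3.18-fold above CD45pos cells. With only those 2 groups in the fit that difference passed (adjusted p = 0.0113).

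Gfi1 and Gfi1b were not well above background on any of the 8 arrays and were not tested. Gfi1 measured -5.46 and -5.06 in passage-8 cells, -5.68 and -5.78 in CD45neg cells, -7.62 and -6.71 in CD45pos cells and -4.91 and -6.55 in ventricle. Gfi1b measured -7.12 and -5.23 in passage-8 cells, -6.70 and -5.30 in CD45neg cells, -5.43 and -6.14 in CD45pos cells and -7.11 and -5.10 in ventricle. These values carry no order, since none was well above background. Some still exceeded the lowest signal well above background on their array, which lay between -5.86 and -4.53. In passage-8 cells that signal was -5.86 and -5.55, below both Gfi1 values.

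Promoters of the members show where the same factors could bind and are set out for genes that moved together or apart. RefSeq promoter entries (build GRCm38.p6, 250 bases before to 50 after the start) were matched by symbol for 9 of the 10 members, with 14 entries. Motifs were searched on both strands: GATAA for GATA factors, CGGAA for ETS factors such as Fli1 and Erg, CANNTG (the E-box) for Tal1 and Lyl1 with E proteins, and TGTGGT for Runx1. Of all 32851 promoters in the table, 25.4% hold GATAA, 29.9% CGGAA, 72.3% CANNTG and 16.8% TGTGGT. Of the 14 entries of the members, 4 hold GATAA, 7 CGGAA, 10 CANNTG and 2 TGTGGT. Below, capitals mark matches to these 4 motifs, none of which overlap in these entries. Lyl1 at chr8:84701207-84701506 (plus strand) and Tal1 at chr4:115056176-115056475 (plus strand) are the helix-loop-helix pair that was low in passage-8 and CD45neg cells. Meis1 at chr11:19018920-19019219 (minus strand) ran the other way. Runx1 as a gene separated cells from ventricle, and its upstream entry is shown, at chr16:92826025-92826324 (minus strand).
Lyl1: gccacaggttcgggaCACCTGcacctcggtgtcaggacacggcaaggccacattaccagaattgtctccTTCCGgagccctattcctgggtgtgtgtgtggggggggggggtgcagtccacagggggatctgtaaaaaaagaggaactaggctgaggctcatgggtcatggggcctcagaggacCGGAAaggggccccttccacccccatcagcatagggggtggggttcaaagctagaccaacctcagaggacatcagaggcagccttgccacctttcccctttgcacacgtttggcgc
Tal1: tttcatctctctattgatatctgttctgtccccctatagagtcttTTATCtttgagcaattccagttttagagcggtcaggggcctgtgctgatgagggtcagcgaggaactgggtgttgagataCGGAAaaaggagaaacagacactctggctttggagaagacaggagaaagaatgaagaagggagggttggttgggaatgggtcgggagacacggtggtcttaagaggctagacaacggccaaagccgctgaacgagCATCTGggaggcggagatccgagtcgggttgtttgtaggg
Meis1: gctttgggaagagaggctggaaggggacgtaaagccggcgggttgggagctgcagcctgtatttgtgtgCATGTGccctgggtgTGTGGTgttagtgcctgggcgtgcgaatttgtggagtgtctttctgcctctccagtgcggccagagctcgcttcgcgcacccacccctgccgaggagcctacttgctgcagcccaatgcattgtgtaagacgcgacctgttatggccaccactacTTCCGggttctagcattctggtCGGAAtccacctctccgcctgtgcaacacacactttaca
Runx1: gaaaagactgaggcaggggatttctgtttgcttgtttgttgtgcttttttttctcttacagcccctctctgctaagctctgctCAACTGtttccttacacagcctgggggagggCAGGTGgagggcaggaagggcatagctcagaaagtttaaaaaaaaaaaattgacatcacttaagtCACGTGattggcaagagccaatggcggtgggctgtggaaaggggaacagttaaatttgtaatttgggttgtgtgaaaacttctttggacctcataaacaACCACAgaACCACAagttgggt

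Lyl1 and Meis1 each hold 2 CGGAA matches, and the Tal1 entry shown holds 1 beside 1 GATAA match. A second Tal1 entry, at chr4:115057561-115057860, holds 0 matches to the 4 motifs. The upstream Runx1 entry holds 2 TGTGGT matches and 3 E-boxes. Another Runx1 entry, at chr16:92697280-92697579, holds 1 CGGAA match and no match to the other motifs. Which Runx1 start was in use was not tested. Matches are letters in a window and not measured binding.

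Among 15 genes whose proteins join or share targets with the members, the clearest differences were in the ETS factors. Fli1 measured -1.32 and -1.05 in passage-8 cells, 0.34 and -0.18 in CD45neg cells, 2.49 and 2.53 in CD45pos cells and 2.04 and 2.05 in ventricle. Fli1 was 3.70 log2 units lower (-3.70 ± 0.27) in passage-8 than in CD45pos cells (limma adjusted p = 0.000933), 5.40-fold lower in CD45neg than in CD45pos cells (limma adjusted p = 0.00435), and it was 2.40-fold lower in passage-8 than in CD45neg cells (limma adjusted p = 0.0324). The myeloid ETS factor Spi1, also called PU.1 and named Sfpi1 on the array, was well above background in CD45pos cells alone, at -0.06 and 0.03. Relative to CD45pos cells, Sfpi1 was at least 51.6-fold lower in passage-8 (limma adjusted p = 0.00051) and at least 24.3-fold lower in CD45neg cells (limma adjusted p = 0.00238). It was at least 30.8-fold higher in CD45pos cells than in ventricle (limma adjusted p = 0.0002). The endothelial and blood factor Erg was above background only in ventricle. Its level in passage-8 cells was at least 12.8-fold below ventricle (limma adjusted p = 0.000628), 6.02-fold below in CD45neg cells (0.0011) and 9.98-fold below in CD45pos cells (0.000706).

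The cofactors moved less and often the other way. Ldb1, which carries the Lmo2 complex, was 2.65-fold higher in passage-8 than in CD45pos cells (limma adjusted p = 0.0151), 4.51-fold higher than in CD45neg cells (limma adjusted p = 0.0074) and 3.39-fold higher than in ventricle (limma adjusted p = 0.00375). The E protein gene Tcf3 was 3.47-fold higher in the passage-8 cells (limma adjusted p = 0.0065) and 3.62-fold higher in CD45neg cells (limma adjusted p = 0.00741) than in CD45pos cells. Ssbp3, which stabilises Ldb1, was higher in passage-8 cells (1.25 ± 0.31) and CD45neg cells (1.38 ± 0.31) than in CD45pos cells. The GATA cofactor Zfpm1 was 4.58-fold higher in passage-8 than in CD45pos cells (limma adjusted p = 0.00552) and 2.69-fold higher than in CD45neg cells (limma adjusted p = 0.0325). Cbfa2t3, a corepressor in the Tal1 complex, was lower than in ventricle in passage-8 (-2.50 ± 0.31), CD45neg (-2.27 ± 0.31) and CD45pos cells (-2.24 ± 0.31). Cbfb, the partner of Runx1, was above ventricle in passage-8 (1.37 ± 0.22), CD45neg (1.11 ± 0.22) and CD45pos cells (1.43 ± 0.22).

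In counts, against CD45pos cells 4 partners rose and 2 fell of 13 tested in passage-8 cells, with a median of 0.43, and 2 rose and 2 fell of 13 in CD45neg cells, with a median of 0.46. Of all genes 22.7% and 21.0% were called in these comparisons. In passage-8 against CD45neg cells 2 rose and 1 fell of 12, with a median of 0.04, where 13.2% of all genes were called. Against ventricle, 6 rose and 3 fell of 13 in passage-8 cells (median 0.51), 4 rose and 3 fell of 13 in CD45neg cells (median 0.64), and 2 rose and 2 fell of 14 in CD45pos cells (median 0.14). Against ventricle 38.9%, 39.2% and 37.8% of all genes were called in these cells, in that order, and these shares hold for the lists that follow. The genes called against ventricle beyond those above were Rcor1 and Tcf12, both higher in passage-8 and CD45neg cells, with Tcf3 higher in both and Ldb1 and Zfpm1 higher in passage-8 cells, and Fli1 lower in passage-8 and CD45neg cells. Gata1, the red cell partner of Tal1, was not well above background in any cell group and Hoxa9 passed in no comparison.

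The 14 paralogs of the members differed among themselves. Of 12 tested, 6 rose and 2 fell in passage-8 cells against CD45pos cells (median 0.85), and 5 rose and 0 fell in CD45neg cells (median 1.33, 0 lower with an unadjusted limma p under 0.05), beside 22.7% and 21.0% of all genes called. The heart and mesoderm factor Gata6 was 12.0-fold higher in passage-8 than in CD45pos cells (limma adjusted p = 0.00247) and 4.61-fold higher in CD45neg cells (limma adjusted p = 0.0128). Gata4, another heart factor, was 2.61-fold higher in the passage-8 cells (limma adjusted p = 0.0172) and 5.82-fold higher in CD45neg cells (limma adjusted p = 0.00426). Meis2 was 4.49-fold higher in the passage-8 cells (limma adjusted p = 0.0034) and 6.71-fold higher in CD45neg cells (limma adjusted p = 0.00319). Mybl2, a cell cycle relative of Myb, was 3.36-fold higher in the passage-8 cells (limma adjusted p = 0.00528) and 2.91-fold higher in CD45neg cells (limma adjusted p = 0.00912). Meis3 was 5.33-fold and Lmo4 2.62-fold higher in passage-8 than in CD45pos cells (limma adjusted p = 0.00275 and 0.0135).

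Lmo1, the nearest relative of Lmo2 in the list, also fell out in passage-8 cells. It measured -7.67 and -7.37 in passage-8 cells, -0.99 and -2.02 in CD45neg cells, -3.98 and -4.15 in CD45pos cells and -0.13 and 0.38 in ventricle. Lmo1 was at least 18.4-fold lower in passage-8 than in CD45neg cells (limma adjusted p = 0.00164) and at least 3.12-fold lower than in CD45pos cells (limma adjusted p = 0.0033), while CD45neg cells were 5.91-fold above CD45pos cells (limma adjusted p = 0.00961). Prdm16, the relative of Mecom, was at least 62.9-fold lower in passage-8 cells than in ventricle (limma adjusted p = 0.00104), at least 24.7-fold lower in CD45neg cells (limma adjusted p = 0.00323) and it was 26.6-fold lower in CD45pos cells (limma adjusted p = 0.00666). Runx2, the bone factor of the Runx family, was above ventricle as Runx1 was: at least 6.74-fold in passage-8 cells, 12.9-fold in CD45neg cells and 5.46-fold in CD45pos cells (limma adjusted p = 0.00115, 0.00061 and 0.00149).

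In passage-8 against CD45neg cells 1 paralog, Meis3, was higher (3.74-fold, limma adjusted p = 0.0108) and 2, Lmo1 and Gata4, were lower of 11 tested (median -0.28, 13.2% of all genes called). Against ventricle 5 rose and 2 fell of 12 tested in passage-8 cells (median 0.95), 6 rose and 2 fell of 11 in CD45neg cells (median 1.14), and 4 rose and 5 fell of 12 in CD45pos cells (median 0.31). Lmo1 and Prdm16 fell and Mybl2, Meis3 and Runx2 rose in each of these 3 comparisons. Lmo4 rose in passage-8 and CD45neg cells, Mybl1 in passage-8 and CD45pos cells, and Meis2 and Gata3 in CD45neg cells. Gata4, Gata6 and Meis2 fell in CD45pos cells.

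Of 9 surface genes of blood stem and progenitor cells tested, 1 rose and 3 fell in passage-8 cells against CD45pos cells (median -2.11), and 0 rose and 2 fell in CD45neg cells (median 0.12), where 2 had an unadjusted limma p under 0.05 in the upward direction. The shares called over all genes were again 22.7% and 21.0%. The markers Cd93 and Cd48 lay 184-fold and 80.7-fold below CD45pos cells in the passage-8 cells (limma adjusted p = 0.00219 and 0.00135), and 49.2-fold and 35.3-fold lower in CD45neg cells (limma adjusted p = 0.00669 and 0.00384). Ly6a, which encodes Sca-1, was 16.5-fold lower in passage-8 than in CD45pos cells (limma adjusted p = 0.00088) and 32.8-fold lower than in CD45neg cells (limma adjusted p = 0.00107). Itga2b, the integrin CD41 of platelets and of early blood progenitors, measured -0.34 and -0.20 in passage-8 cells, -4.17 and -4.16 in CD45neg cells, -4.13 and -4.68 in CD45pos cells and -4.50 and -3.67 in ventricle. Itga2b was 17.6-fold higher in passage-8 than in CD45pos cells (limma adjusted p = 0.00142). In passage-8 against CD45neg cells 1 rose, Itga2b, and 1 fell, Ly6a, of 8 tested (median -1.23, 13.2% of all genes called). Against ventricle, of 10 tested, 1 rose and 5 fell in passage-8 cells (median -2.46), 1 rose and 3 fell in CD45neg cells (median -1.11) and 1 rose and 4 fell in CD45pos cells (median -0.90). The gene that rose was Itga2b in passage-8 cells, Flt3 in CD45neg cells and Cd48 in CD45pos cells. Tek and Slamf1 fell in each of the 3. Cd93 also fell in passage-8 and CD45neg cells, Ly6a in passage-8 and CD45pos cells, Cd48 in passage-8 cells and Cd34 in CD45pos cells.

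**Figure D5:**
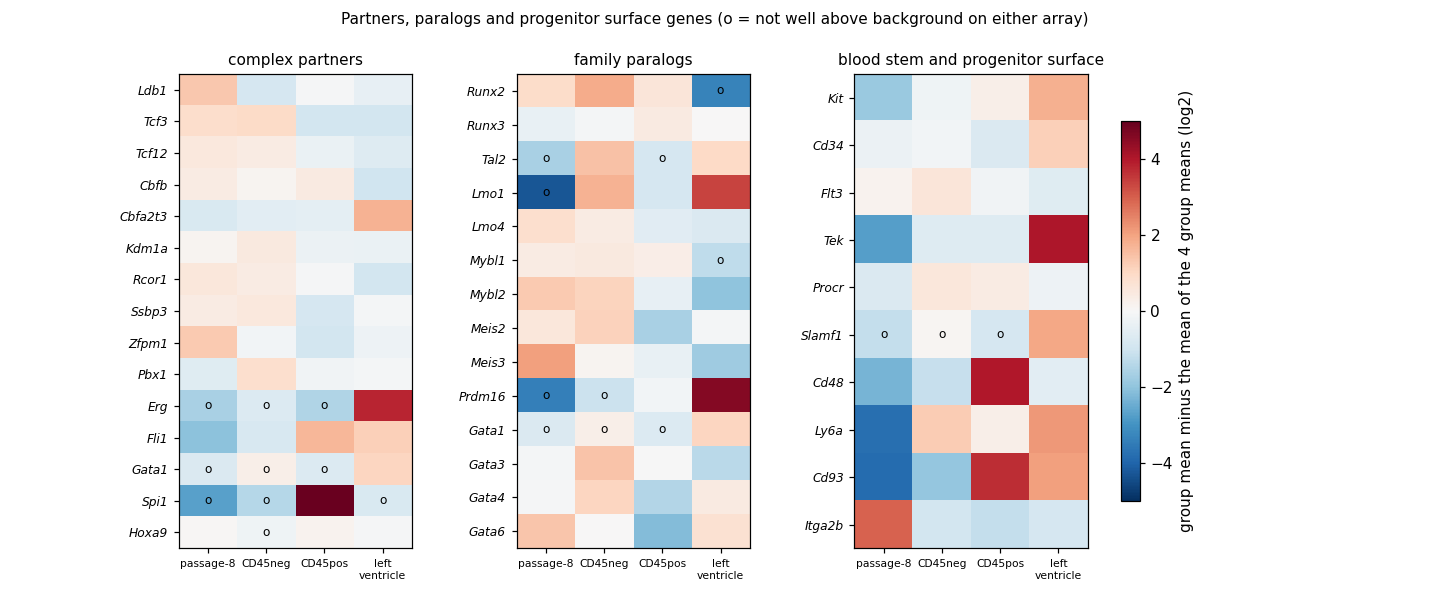
Group means of complex partners, family paralogs and progenitor surface genes, each minus the mean of its 4 group means (colour, log2), in passage-8 cells, CD45neg cells, CD45pos cells and left ventricle (columns). An o marks a group with neither array well above background. Fli1, Cd48 and Cd93 are low in passage-8 cells and high in CD45pos cells, Itga2b is high in passage-8 cells, and Erg, Tek and Prdm16 are high in ventricle.

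The genes whose profile over the 8 arrays was most like each member were named by Pearson r, given as a description since the arrays share 4 groups. For Lmo2 they were Cd40 (0.994), C1qc (0.993) and F13a1 (0.993). For Lyl1 they were St8sia4 (0.998), Rasgef1b (0.997) and Adap2 (0.995), and for Tal1 Acss1 (0.993), Nav2 (0.989) and Inpp5j (0.989). For Runx1 they were Vill (0.999), Trim12a (0.996) and Aplp1 (0.993). Meis1 was nearest to Ltbp1 (0.996), Unkl (0.993) and Neo1 (0.992), and Gata2 to Polr2l (0.981), Hecw2 (0.972) and Clu (0.966). Mecom was nearest to Tesk2 (0.979), Trpc1 (0.959) and Gucy1a2 (0.958), and Myb to Plekhh1 (0.921), Slc5a2 (0.892) and Pcdhga10 (0.88). None of these genes is a member or is on the partner, paralog, surface or marker lists.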

How the data were processed

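The 8 samples of total RNA carried Cy3 dye on Agilent arrays, per the labels. The deposited intensity values are scanner output, which the submitters' processing notes credit to Agilent Feature Extraction 10.7. Per the file headers, the processed signal used here was background-corrected within the array and not normalized between arrays. The authors' value table holds log2 values with column medians from 6.087 to 6.094. How that table was normalized is not given.

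Control spots (3671 of 62976) were left out and repeat spots averaged. Values were log2 processed signals less the 75th percentile of their array, fitted with limma 3.58.1 (R 4.3.3, lmFit and eBayes), with 1 mean per group over all 8 arrays, 4 residual and 6.02 total degrees of freedom. All tests are two-sided. A gene is represented by its probe with the highest mean, and every member probe is also given. A fold is a lower bound, written "at least", where a dim group had both arrays not well above background. It then sets the brighter mean against, per array, whichever is higher, the dim signal or the lowest one that counts as well above background. Such a bound holds for the group means of the reported fit, not for single arrays or other settings. The fit was tested on simulated data. No group has more than 2 arrays, so no exact permutation test was run.

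Probe positions are in build mm9, as in the scanner files, and exons were not assigned. Promoters are RefSeq's, in build GRCm38.p6. Likeness took, per member with group means spanning over 2 log2 units, the 3 named genes with the highest Pearson r among probes well above background on both arrays of a group and spanning at least 50% as much. From the partner, paralog and surface lists up to 4 called genes per direction and comparison were open to naming. Marker lists for 9 cell types and for red cell and platelet products were summed. One gene of the surface list is not reported here and was left out of its counts. Members and lists were chosen with earlier results of these data known. Alternatives covered normalization, background correction (normexp, offset 50), the authors' table, the dim-probe filter, probe choice, fold minimum, moderation, arrays in the fit, a replicate block and each array left out.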

Additional observations from a re-analysis of the deposited data

How the results depend on the processing

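Of 834 recomputed member differences over 19 alternative settings, 741 kept direction and side of the threshold, 49 were no longer called, 30 became called and 14 turned sign, all of the 14 called under neither setting. The number of members called changed by over 1.5 times as follows. With only probes well above background on all 8 arrays it was 2 in CD45neg against CD45pos cells, 3 in passage-8 against CD45pos cells, 0 in passage-8 against CD45neg cells (limma, 4 members tested, 0 with an unadjusted p under 0.05) and 2 in passage-8 cells against ventricle, since fewer members were tested. Of all 17974 genes tested with that filter, 3351, 3506, 1912 and 6417 were called in these comparisons, in that order. With the mean of all probes of a gene it was 1 in passage-8 against CD45neg cells, and with an intensity trend in eBayes 5 in CD45neg cells against ventricle. Over all genes, 2896 of 22821 and 9137 of 22276 were called there. With only the 2 groups compared in the fit it was 2 in CD45neg against CD45pos cells and 0 in passage-8 against CD45neg cells. Over all genes that fit called 1792 of 21519 and 0 of 22770, against 4528 and 2999 in the reported fit. The cause of the changes under the last 3 settings was not tested. Leaving out 1 array at a time gave 1 to 6 members called in CD45neg against CD45pos cells, 3 to 5 in passage-8 against CD45pos cells, 1 to 5 in passage-8 against CD45neg cells, 2 to 5 in CD45neg cells against ventricle, 3 to 6 in CD45pos cells against ventricle and 3 to 5 in passage-8 cells against ventricle.

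Signs turned in passage-8 against CD45neg cells for Myb (-0.68) and Tal1 (-0.91) with normexp and for Tal1 (-0.042) with the authors' table. Leaving out 1 array at a time, the difference there ran from -0.15 to 0.18 for Meis1, from -1.28 to 3.06 for Myb, from -0.78 to 2.05 for Tal1 and from -2.43 to 0.35 for Lyl1, the lowest without CD45neg replicate 2 for Meis1 and without CD45neg replicate 1 for the other 3. In passage-8 cells against ventricle Myb turned with normexp (-0.27) and ran from -1.19 without ventricle replicate 2 to 3.38 without replicate 1, and Gata2 ran from -0.70 without ventricle replicate 1 to 0.31 without replicate 2. Mecom in passage-8 against CD45pos cells turned with the mean of all probes (0.066) and ran from -0.74 without CD45pos replicate 2 to 0.12 without replicate 1. Runx1 in CD45neg against CD45pos cells ran from -0.72 without CD45neg replicate 2 to 0.33 without replicate 1. The cause was not tested.

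Whether the replicate numbers pair the samples is not in the labels. Correlations of same-numbered deviations over 24229 probes ran from -0.19 to 0.20, which cannot settle it with 2 arrays per group. With the number as a replicate block, 5, 4 and 2 members were called in CD45neg against CD45pos, passage-8 against CD45pos and passage-8 against CD45neg cells, and 4, 4 and 5 in the CD45neg, CD45pos and passage-8 groups against ventricle. A crossed block, added after seeing the data, gave 5, 4, 2, 3, 4 and 5 in that order. Over all genes the block called 4128 of 21519, 4946 of 23436, 2481 of 22770, 8640 of 22276, 8556 of 23088 and 9140 of 23981. The crossed block called 4163, 5067, 2440, 8677, 8650 and 9277 of the same genes, again in that order. Tal1 in passage-8 against CD45pos cells was lost with the block (adjusted p = 0.0576) and the crossed block (0.0666). Lmo2 in CD45neg cells against ventricle was gained with the block (0.0408), and in CD45pos cells against ventricle Lmo2 was lost (0.0504) and Mecom gained (0.0335) with the crossed block. Normexp moved the median of all genes tested to 0.33 in CD45neg against CD45pos cells (0.17 in the reported fit) and to -0.26 in passage-8 against CD45neg cells (-0.01), where 1076 of 3463 called genes were then higher, against 1481 of 2999. With only those 2 groups in the fit 0 of 22770 genes passed there. Signal near background limits Myb, Gfi1, Gfi1b, Tal1 and Mecom.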

Other observations

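Products of the red cell and platelet lines, in which Tal1, Gata1 and Gfi1b act, were mostly near background in the cells. Of 12 such genes, 7 were well above background on neither passage-8 array, 11 on neither CD45neg array and 6 on neither CD45pos array. The erythropoietin receptor gene Epor was well above background on every array, at -0.68 and -0.84 in passage-8 cells, -1.63 and -2.14 in CD45neg cells, -0.03 and -0.0035 in CD45pos cells and -0.83 and -0.65 in ventricle. Nfe2 (-3.60 and -3.27) and Klf1 (-5.16 and -3.89) were well above background on both arrays in passage-8 cells alone. The summed signal of 12 such genes was 0.815 to 0.875 times the 75th percentile in passage-8 cells, 0.454 to 0.470 in CD45neg cells and 1.205 to 1.26 in CD45pos cells, against 299 to 466 in ventricle. Of those tested against ventricle, 5 of 9 were called lower and 1, Nfe2, higher in passage-8 cells, 7 of 7 lower in CD45neg cells and 4 of 7 lower in CD45pos cells. Of all genes 18.7%, 19.1% and 19.7% were called lower in those comparisons. The globin genes Hba-a1 and Hbb-b1 were among those lower in each of the 3 comparisons.

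The marker sums of other cell types were as follows. The 10 fibroblast markers summed to 1058 to 1065 in passage-8 cells, 1480 to 1568 in CD45neg cells, 614 to 642 in CD45pos cells and 283 to 432 in ventricle. The 7 mesothelial markers summed to 33.4 to 37.6 in passage-8 cells, 2.16 to 3.99 in CD45neg cells, 6.11 to 7.09 in CD45pos cells and 6.60 to 7.58 in ventricle. The 8 cardiomyocyte markers summed to 5.87 to 6.11 in passage-8 cells, 0.624 to 1.46 in CD45neg cells, 1.25 to 1.41 in CD45pos cells and 3770 to 4109 in ventricle. The 7 smooth muscle and pericyte markers summed to 91.6 to 93.0 in passage-8 cells, 101 to 114 in CD45neg cells, 36.1 to 37.7 in CD45pos cells and 116 to 152 in ventricle. Acta2 made up most of that sum in each cell group, with a mean of 6.49 log2 units in passage-8 cells and 5.64 in ventricle. Myh11 and Rgs5 were dim on every cell array. Against ventricle, 5 of these 7 markers were called lower in passage-8 cells, 3 in CD45neg and 4 in CD45pos cells. Of all genes 18.7%, 19.1% and 19.7% were called lower there. Notch3 was called higher in CD45neg cells. The 8 lymphocyte markers summed to 2.83 to 3.096 in passage-8 cells, 4.23 to 6.30 in CD45neg cells, 12.2 to 12.4 in CD45pos cells and 3.35 to 5.32 in ventricle. The 8 granulocyte markers summed to 135 to 137 in passage-8 cells, 115 to 201 in CD45neg cells, 125 to 145 in CD45pos cells and 134 to 145 in ventricle. Csf3r, between 6.79 and 7.59 log2 units on every array, made up most of that sum. Of 6 granulocyte markers tested in passage-8 against CD45pos cells, S100a8, Mpo, Camp and Ly6g were called lower, where 10.6% of all genes were.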
